A study of Danio rerio with 2 samples.

Results

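Genes that make, carry, inactivate or sense steroids were compared between the brains of male and female zebrafish. The 65 genes are those of 27095 in the count table whose symbol begins with the name of a steroidogenic enzyme, a cholesterol carrier, a steroid sulfotransferase, a membrane progestin receptor or a steroid receptor coregulator. They comprise 6 carriers, 7 cytochrome P450 and ferredoxin genes, 14 hydroxysteroid dehydrogenases, 7 reductases, 14 sulfotransferases, 9 membrane progestin receptor genes and 8 coregulators. Names starting with cyp21 or equal to sts, the steroid sulfatase, were searched for and matched no symbol in the table. A shared name does not make every one of them a steroid gene: akr1a1b reduces aldehydes and hsd17b12a lengthens fatty acids.

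RNA sequencing was done on whole brain of wild-type fish, 1 library from males and 1 from females, each made from the pooled brains of 5 fish. No treatment and no age is named in the labels. The male library held 62248792 estimated reads and the female library 64300988. With 1 library per sex no spread between fish can be estimated, so no p-value is given. Each interval below is an exact 95% interval that covers counting error only.

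Neurosteroids are steroids made within the brain. StAR moves cholesterol into the mitochondrion, where CYP11A1 cuts its side chain with electrons passed on by ferredoxin. CYP17A1 and the hydroxysteroid dehydrogenases then turn the product into androgens, and 5-alpha-reductases or aromatase finish the active hormones. Sulfotransferases add a sulfate group that keeps a steroid from binding its nuclear receptor. Receptors of the PAQR family sense progestins at the cell surface, while coactivators and corepressors set how strongly nuclear receptors drive transcription.

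Of the 65 genes, 48 reached a mean of 1 CPM, a unit of reads scaled to library depth, 9 had reads below that level and 8 were listed at 0 in both libraries. A call of higher required a mean of at least 1 CPM, a difference of at least 2-fold and an interval clear of equality. Ratios are the log2 of male divided by female level, negative where the female library had more, and reads are printed with the male value first. Under this rule cyp11a1 and paqr5a were higher in the female library, which is 2 of 48 (4.17%) against 2.70% of the 14756 measured genes. None of the 48 was higher in the male library, against 1.06% of measured genes. The other 46 met the rule in neither direction, and 39 of the 48 lay within 0.5 of equal on the log2 scale (81.3%, against 88.9% of measured genes).

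Low-level genes differed between these libraries more often than abundant ones. Among genes at 1 to 5 CPM, 11.1% were called higher in the female library, and 2 of the 14 steroid genes in that range were called (14.3%). The male side of that range held 3.77% of genes and none of the 14. The share of called steroid genes was close to the background of genes at their level. Over all genes, 156 were called on the male side and 399 on the female side, or 203 and 328 once the dependence of the ratio on expression was removed by a smooth fit, called the expression trend below. Whether a gene reaches a mean of 1 CPM can rest on 1 library, as for cyp11a1 (0.489 against 2.61 CPM) and greb1 (0.847 against 1.32 CPM), so counts over the 48 are descriptions.

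**Figure D1:**
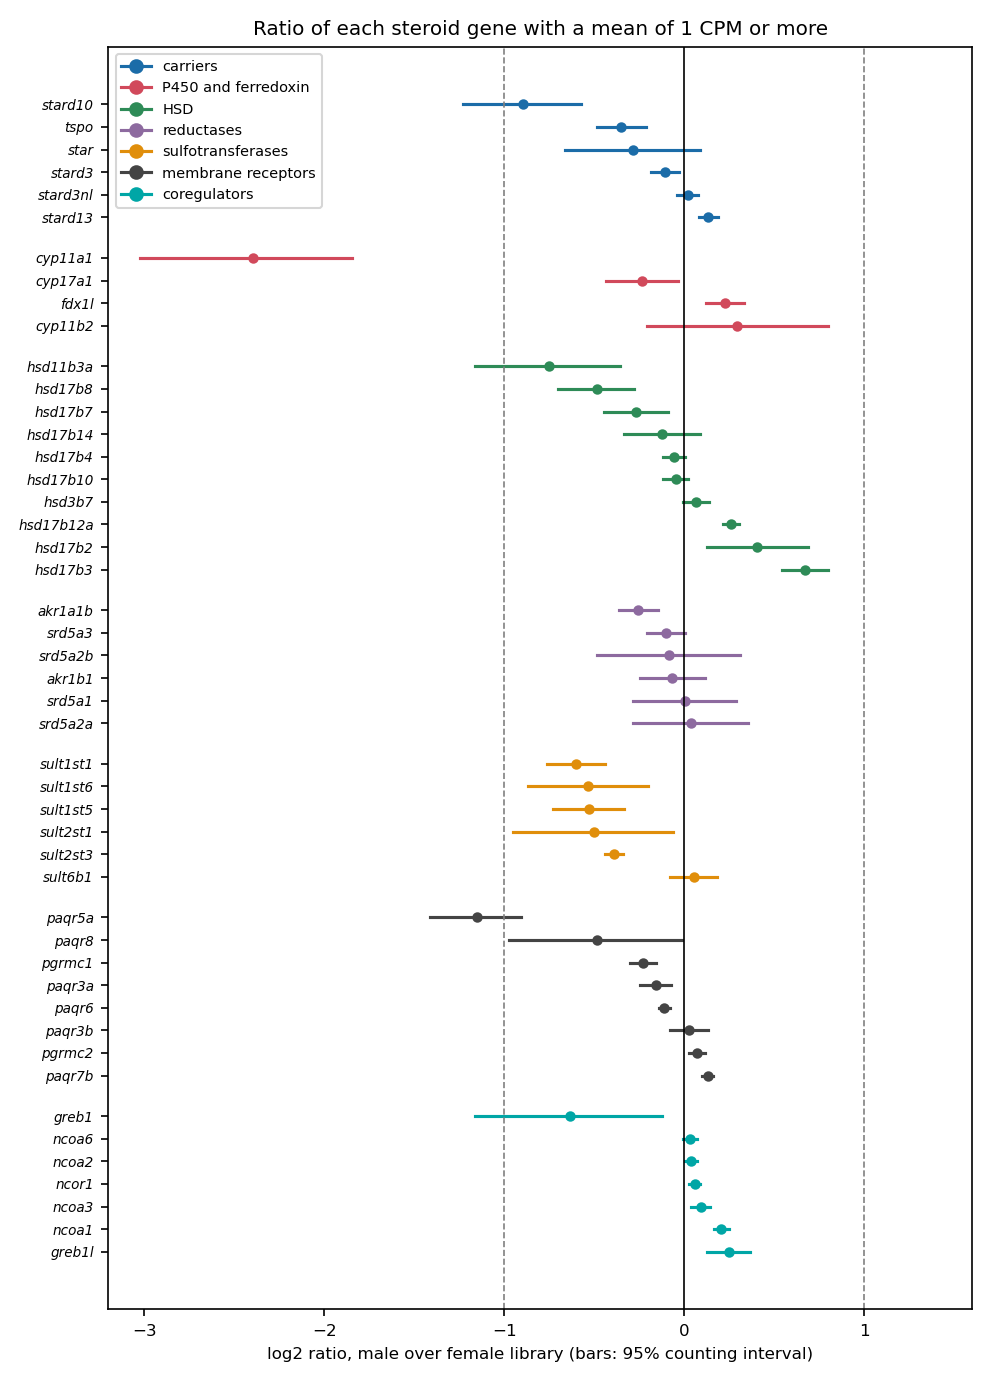
Log2 ratio of male over female for 47 of the 48 steroid genes with a mean of 1 CPM or more, grouped by role. Points are ratios, bars are 95% counting intervals, the solid line marks equality and the dashed lines mark 2-fold. Only cyp11a1 and paqr5a lie beyond a dashed line, both on the female side.

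**Figure D2:**
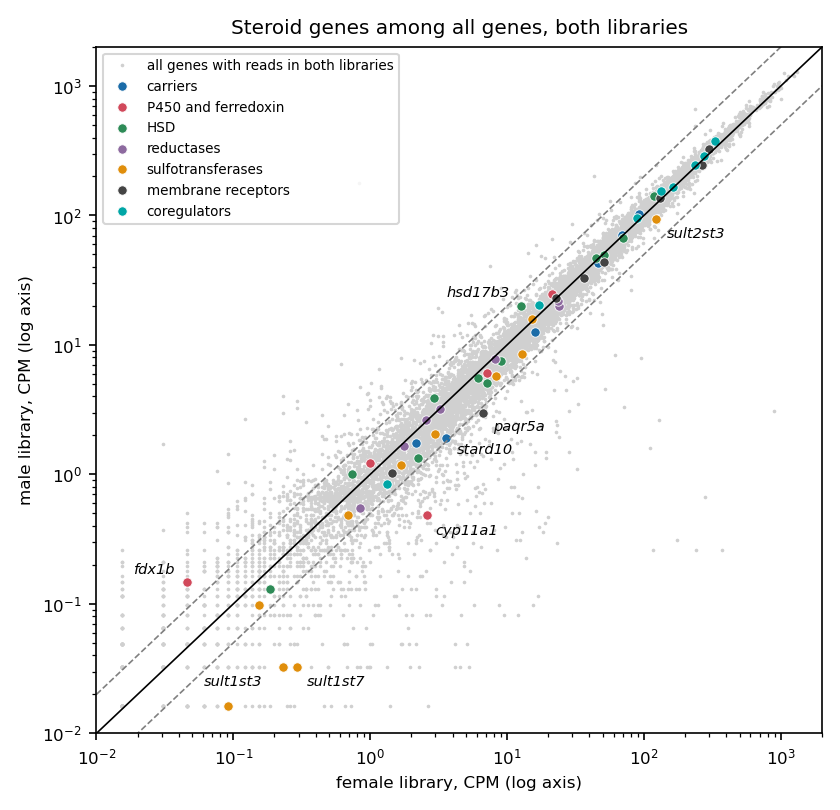
Level in the female library (CPM, log axis) against the male library (CPM, log axis) for the steroid genes with reads in both, coloured by role, over all genes in grey. The solid line is equality and the dashed lines are 2-fold. No steroid gene with a mean above 10 CPM lies beyond a dashed line, and cyp11a1 is the P450 gene farthest to the female side.

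Markers of some other tissues differed strongly between the libraries, and their part in the values below was not tested. All 9 liver markers were called higher in the female library, and their levels summed to 44.2 CPM in males and 1524 CPM in females. Most of the female sum came from the vitellogenin genes vtg1 (3.08 against 899 CPM) and vtg2 (0.261 against 374 CPM). The log2 ratios of the other liver markers were smaller, from -3.73 for ambp to -1.20 for apoa1b. Of 13 oocyte and egg-coat genes 7 were measured, and 5 of these were called on the female side, among them zp3a.1 with 7 against 1096 reads. The summed level of that list was 128 against 201 CPM. Most of it came from the gene listed as wu:fi69e09, now nobox, with 7027 against 7147 reads (0.06). The sum is therefore mostly that of this gene and says little about the egg-coat genes. The list's members bmp15 and buc were listed at 0 in both libraries. Exocrine pancreas markers summed to 24.2 against 39.9 CPM. All 4 measured ones had intervals on the female side, and ela2l (58 against 319 reads, -2.36) and ela3l (39 against 330, -2.98) were called, while ctrb1 was listed at 0. Brain markers summed to 3912 against 4057 CPM over 10 genes, mostly from neuronal genes such as snap25a (-0.05), and 8 of the 10 had intervals wholly on the female side. Among the glial ones were the radial glia genes gfap at 5086 against 7042 reads (-0.38, interval -0.43 to -0.33) and fabp7a at 10442 against 13909 (-0.32, interval -0.36 to -0.29), and the myelin gene mbpa at -0.18. The part of glial cells in the values below was not tested either. In pooled tissue, fewer cells of a type and less RNA per cell cannot be told apart.

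Among steroid genes with a mean of at least 1 CPM, the widest difference was in cyp11a1. The gene cyp11a1 encodes the P450 that turns cholesterol into pregnenolone, the first step of steroid hormone synthesis. It stood at 30 male and 170 female reads, a log2 ratio of -2.39 with an interval of -3.03 to -1.85. This is 5.26-fold more in the female library, with an interval from 3.60-fold to 8.14-fold. Of the measured genes, 0.942% had a ratio as low or lower. Its mean of 1.55 CPM lies at 1 to 5 CPM, where 11.1% of genes were called higher in the female library. With the expression trend removed the ratio was -2.20. The part played in it by the liver and egg-coat RNA described above was not tested. Its locus lies on chromosome 25 of the Zv9 assembly, plus strand, from 23043281 to 23058622.

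The other genes of the side-chain cleavage and hydroxylation steps were not called in either direction. A second copy, now named cyp11a1.2, lies next to cyp11a1 on chromosome 25 from 23020028 to 23034855 and was listed at 0 in both libraries. Reads of such similar copies may have been divided unevenly, so the value of cyp11a1 alone is uncertain. The 17-hydroxylase gene cyp17a1, on the route to androgens, had 370 against 462 reads, a log2 ratio of -0.23 (interval -0.43 to -0.03). Its interval included equality with the expression trend removed (-0.32 to 0.08). The gene listed as cyp11b2, now cyp11c1, encodes the 11-beta-hydroxylase of cortisol and 11-ketotestosterone synthesis and had 75 against 65 reads. Its log2 ratio was 0.29, with an interval of -0.20 to 0.80 that includes equality. With the expression trend removed it was 0.51, and the interval, 0.02 to 1.02, left out equality.

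Ferredoxins supply electrons to mitochondrial P450 enzymes. The gene fdx1l, now fdx2, which is better known for iron-sulfur cluster assembly, had 1522 against 1381 reads, a log2 ratio of 0.23 (interval 0.12 to 0.34). The steroidogenic ferredoxin of zebrafish, fdx1b, was barely detected, at 9 against 3 reads, and its ratio of 1.53 had an interval from -0.33 to 4.20. The genes fdx1 and cyp17a2 were listed at 0 in both libraries. A listed 0 need not mean absence, because 8 of 73 ribosomal protein genes, which every cell uses, were also listed at 0 in both.

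Cholesterol carriers were measured for all 6 genes and none was called. The steroidogenic acute regulatory gene star, whose product delivers cholesterol to CYP11A1, had 108 against 140 reads, a log2 ratio of -0.28 (interval -0.66 to 0.09). The mitochondrial translocator gene tspo, also a marker of microglia, had 767 against 1039 reads and a ratio of -0.35 (interval -0.49 to -0.21). The endosomal cholesterol transporters stard3 and stard3nl were near equal, with 2644 against 3025 reads (-0.11, interval -0.18 to -0.03) and 4322 against 4534 reads (0.02, interval -0.04 to 0.08). The sign for stard3nl turned under library totals (-0.02) and with the expression trend removed (-0.01).

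The START-domain gene listed as stard10, now stard14, came nearest to the 2-fold line among the genes that were not called. Its 118 against 234 reads gave a log2 ratio of -0.90, with an interval of -1.23 to -0.57 that spans 2-fold. With the expression trend removed the ratio was -0.73. The gene stard13, now stard13a, had 6249 against 6049 reads (0.14, interval 0.08 to 0.19).

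Hydroxysteroid dehydrogenases swap keto and hydroxyl groups and so switch steroids between strong and weak forms. Of 14 genes 10 were measured and none was called, with 4 ratios above and 6 below equal and a median of -0.05. The gene hsd17b3, whose product forms testosterone, had the highest ratio of all 48 genes, with 1237 against 825 reads. That is a log2 ratio of 0.67 (interval 0.54 to 0.80), or 1.59-fold more in the male library, and 2.13% of measured genes were as high or higher. Among the measured steroid genes it alone passed 1.5-fold on the male side, 1 of 48 against 2.80% of measured genes, and its ratio was 0.74 with the expression trend removed.

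Neither hsd17b1 nor hsd17b2, whose products act on estrone and estradiol, was called. The gene hsd17b1, whose product turns estrone into estradiol, had 62 against 48 reads and fell just short of the minimum level. Its interval, -0.11 to 1.03, includes equality. The gene hsd17b2, which works in the opposite direction, had 238 against 191 reads, a log2 ratio of 0.41 (interval 0.13 to 0.69).

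Among glucocorticoid-linked genes, the one listed as hsd11b3a, now hsd11b1la, had 82 against 147 reads. Its log2 ratio was -0.75 (interval -1.16 to -0.35), or 1.68-fold more in the female library. With the expression trend removed it was 1.48-fold. The cortisol-inactivating enzyme gene hsd11b2 was listed at 0 in both libraries, as was hsd17b12b. The gene listed as hsd3b1, now hsd3b2, had only 8 against 12 reads, with an interval of -1.99 to 0.92.

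Dehydrogenases that act mainly on fatty acids, sterol precursors or bile acids held most of the reads of this family. The fatty-acid elongation gene hsd17b12a had 8637 against 7668 reads (0.26, interval 0.22 to 0.30). The peroxisomal gene hsd17b4 had 4124 against 4552 (-0.05, interval -0.11 to 0.01). The mitochondrial gene hsd17b10 had 3055 against 3358 (-0.05, interval -0.12 to 0.02), and the bile acid gene hsd3b7 had 2892 against 2938 (0.07, interval -0.01 to 0.14). All 3 of these intervals include equality, though that of hsd17b4 left it out with the expression trend removed (-0.14 to -0.02). The mitochondrial fatty acid gene hsd17b8 had 312 against 465 reads (-0.49, interval -0.70 to -0.28). The cholesterol synthesis gene hsd17b7 had 463 against 592 reads (-0.27, interval -0.44 to -0.09). Its interval included equality with the expression trend removed (-0.34 to 0.01). The remaining member, hsd17b14, had 343 against 397 reads and an interval, -0.33 to 0.09, that includes equality.

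Reductases had the smallest median absolute log2 ratio of the classes, 0.07, against 0.13 for all measured genes. All 6 measured genes lay within 0.5 of equal, as did 88.9% of all measured genes. The intervals of 5 included equality, as did those of 5555 of the 14756 measured genes. Genes with few reads have wide intervals, so this does not show that they were even. The 5-alpha-reductases convert testosterone into dihydrotestosterone and progesterone into neuroactive pregnanes. Here srd5a1 stood at 198 against 210 reads (0.0039, interval -0.28 to 0.29), srd5a2a at 161 against 167 (0.04, interval -0.29 to 0.36) and srd5a2b at 102 against 115 (-0.08, interval -0.48 to 0.31). The related srd5a3, which serves protein glycosylation, had 1343 against 1532 reads (-0.10, interval -0.21 to 0.01). The intervals allow differences of up to 1.22-fold in srd5a1 and 1.28-fold in srd5a2a, and more in srd5a2b, which had the fewest reads of the 6.

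The aldehyde reductase gene akr1a1b was the reductase whose interval left out equality, with 1224 against 1552 reads (-0.25, interval -0.36 to -0.14). The aldose reductase gene akr1b1, now akr1b1.1, had 481 against 535 reads (-0.06, interval -0.25 to 0.12). The second aldehyde reductase copy, akr1a1a, lay under the minimum level with 34 against 55 reads (interval -1.27 to 0.04). Signs within this class were not stable: akr1b1 and srd5a2b turned positive with the expression trend removed (0.04 and 0.11), and srd5a1 and srd5a2a turned negative under library totals (-0.04 and -0.0058).

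Sulfotransferases leaned to the female library as a class, although none reached 2-fold with a mean of 1 CPM. Of the 11 with reads, 10 had more scaled reads in the female library, against 8353 of all 16827 genes with reads. Of all genes at 1 to 5 CPM, 1595 of 2574 did, and 5 of the 11 had a mean under 1 CPM. Some of the 11 are similar copies, described below, and are not separate observations. An interval wholly on the female side was found in 5 of the 6 measured genes. The share was 30.8% of all measured genes and 37.4% of those at 1 to 5 CPM. The median log2 ratio of the 6 was -0.51, against -0.0014 for all measured genes and -0.15 for genes at 1 to 5 CPM. Of the 6, only sult1st6 (2.51 CPM) and sult2st1 (1.44 CPM) lay in that range. Summed over the 14 genes, the level was 128 CPM in males and 166 CPM in females. None of the 6 measured genes turned sign in any alternative scaling or with the expression trend removed. Without the gene with most reads, sult2st3, the sums were 33.9 and 42.5 CPM.

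The hydroxysteroid sulfotransferase gene sult2st3 had 5778 against 8045 reads. Its log2 ratio of -0.39 had a narrow interval of -0.44 to -0.34, or 1.31-fold more in the female library, and it was -0.44 with the expression trend removed. The related sult2st1 had 73 against 110 reads (-0.50, interval -0.95 to -0.06). Its interval included equality once the trend was removed (-0.75 to 0.14). The gene sult2st2, beside sult2st1 on chromosome 12, was listed at 0 in both libraries.

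The sult1st genes encode enzymes that sulfate phenols, estrogens and thyroid hormones. The gene sult1st1 had 522 against 841 reads, a log2 ratio of -0.60 (interval -0.76 to -0.44), or 1.51-fold more in the female library. It was 1.42-fold with the expression trend removed. Close to it were sult1st6 with 126 against 194 reads (-0.53, interval -0.87 to -0.20) and sult1st5 with 351 against 539 (-0.53, interval -0.73 to -0.33). Those 3 genes thus had nearly equal ratios, and their intervals overlap.

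A cluster of 5 sult1st genes lies on chromosome 8 (Zv9) from 48600924 to 48726161, all on the minus strand, and includes sult1st1. Of its minor members, sult1st7 had 2 against 19 reads (-2.87, interval -6.31 to -1.11) and sult1st3 had 2 against 15 (-2.54, interval -5.99 to -0.71). Both were under the minimum level, and both would be called if no minimum were set. Their neighbour sult1st2 had 6 against 10 reads and sult1st8 was listed at 0. These copies are similar in sequence, so the division of reads among them is uncertain, while the cluster total was 532 against 885 reads. Away from the cluster, sult1st4 had 30 against 45 reads (-0.49, interval -1.21 to 0.20), and sult3st2 had 1 against 6 (interval -8.02 to 0.55). The exception to the female lean was sult6b1, with 967 against 991 reads (0.05, interval -0.08 to 0.18). The genes sult3st1 and sult1st8 had no reads listed in either library.

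Liver is a known major site of sulfotransferase expression, and the 9 liver markers differed in the same direction, with a median log2 ratio of -3.59. The part of liver RNA in the sulfotransferase values was not tested.

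**Figure D3:**
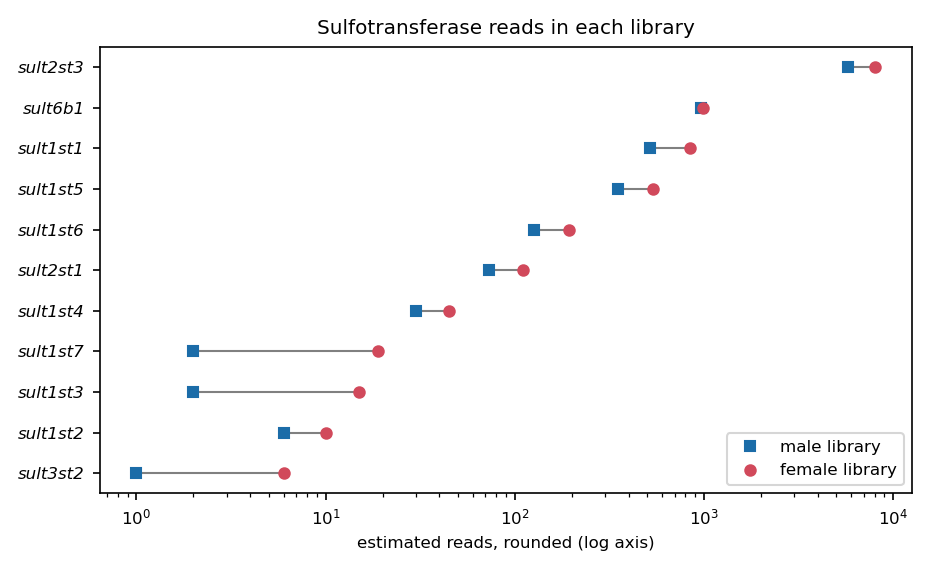
Estimated reads (log axis) in the male library (squares) and the female library (circles) for the 11 sulfotransferase genes with reads, ordered by mean level. Grey lines join the 2 values of a gene. In each row the circle lies to the right of the square, by little for sult6b1, whose scaled ratio is near equality (0.05), and from 1 to 6 reads for sult3st2.

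Membrane progestin receptors are proteins of the PAQR family that signal without entering the nucleus. Of the 9 genes of this class 8 were measured, and paqr5a, the gamma receptor, was called on the female side. It stood at 184 against 436 reads, a log2 ratio of -1.15 with an interval of -1.41 to -0.90. That is 2.22-fold more in the female library (interval 1.87 to 2.66), so the interval reaches below 2-fold. Of all measured genes, 2.23% were as low or lower. The mean of paqr5a, 4.84 CPM, lies at 1 to 5 CPM, where 11.1% of genes were called on the female side. The ratio was -1.03 with the expression trend removed, still past 2-fold at 2.04. It lies on chromosome 18 of Zv9, minus strand, from 20240599 to 20246772. The partner copy paqr5b was listed at 0 in both libraries. The part of RNA from other tissues in the paqr5a value was not tested.

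The other progestin receptors of this family were not called. The alpha receptor gene paqr7b, known for its role in oocyte maturation, had 20065 against 19494 reads (0.13, interval 0.10 to 0.16). The delta receptor gene paqr6 had 15009 against 17228 reads (-0.11, interval -0.14 to -0.08). The beta receptor gene paqr8 was near the minimum level, with 63 against 94 reads (-0.48, interval -0.97 to -0.01). Its interval included equality with the expression trend removed (-0.76 to 0.20). The interval of paqr5a overlapped that of paqr8 and lay apart from those of paqr7b and paqr6.

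The mammalian counterpart of the paralogues paqr3a and paqr3b holds RAF kinase at the Golgi and is not known mainly as a steroid receptor. Here paqr3a had 2016 against 2389 reads (-0.16, interval -0.24 to -0.07) and paqr3b had 1426 against 1486 (0.03, interval -0.08 to 0.13). For the haem-binding progesterone receptor membrane components, pgrmc1 had 2686 against 3346 reads (-0.23, interval -0.30 to -0.15). Its paralogue pgrmc2 had 8411 against 8507 (0.07, interval 0.03 to 0.12). The intervals of this last pair do not overlap. That of pgrmc2 included equality with the expression trend removed (-0.03 to 0.06).

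**Figure D4:**
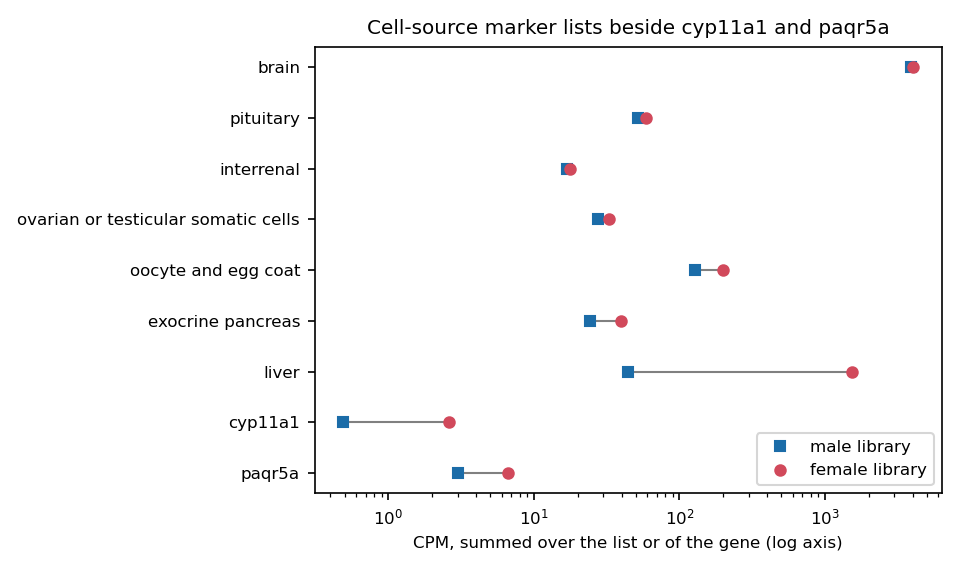
Summed level (CPM, log axis) of marker lists for 7 cell sources, and the level of cyp11a1 and paqr5a, in the male library (squares) and the female library (circles). Liver markers stand at 44.2 against 1524 CPM, brain markers at 3912 against 4057, and cyp11a1 at 0.489 against 2.61. The female liver sum is mostly that of vtg1 and vtg2.

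Other sources of steroidogenic cells were read from their own markers. Interrenal tissue, the fish counterpart of the adrenal cortex, had 7 markers in the table, with a summed level of 16.8 against 17.6 CPM. The list shares star, cyp11b2 and cyp17a2 with the genes described here, and most of its reads were those of nr5a1a (841 against 935). Its members cyp17a2, cyp21a2 and the gene now named hsd3b1, which differs from the one the table calls by that name, were listed at 0. As stated above, a listed 0 need not mean absence. Its members star (108 against 140 reads) and cyp11b2 (75 against 65) were detected, and mc2r, the corticotropin receptor, had 9 reads in each library. Somatic gonad markers summed to 27.5 against 32.8 CPM over 8 genes. Only 3 of the 8 were measured and none of these was called, while the other 5 had reads under the minimum level. Most of that sum came from gsdf, with 1316 against 1784 reads (-0.35, interval -0.45 to -0.25), and foxl2a, with 96 against 138 (-0.43, interval -0.83 to -0.05), lay on the same side. The other measured gene, amh, had 119 against 97 reads (0.38, interval -0.02 to 0.79). Gonadal aromatase cyp19a1a had 57 against 49 reads and the gonadotropin receptor fshr 11 against 9, with intervals that include equality. Over the 8 genes, 6 ratios lay above 0 and 2 below. Pituitary markers summed to 52.1 against 59.2 CPM and went both ways. The glycoprotein hormone subunit gene cga stood at -0.63 and the prolactin gene prl at 0.98, and fshb was listed at 0. Of the 7 with reads, 5 ratios lay above 0 and 2, those of cga and gh1 (-0.27), below. Most of the sum came from these 2 genes. The part of these tissues in the cyp11a1 and paqr5a values was not tested.

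None of the 8 coregulator genes was called, and their log2 ratios ran from -0.63 for greb1 to 0.25 for greb1l. The p160 coactivators recruit histone acetyltransferases to hormone-bound receptors. Their genes stood at 9468 against 8722 reads for ncoa1 (0.21, interval 0.16 to 0.25) and 14971 against 15498 for ncoa2 (0.04, interval 0.006 to 0.07). The third, ncoa3, had 5818 against 5803 reads (0.09, interval 0.04 to 0.15). The coactivator ncoa6 had 10171 against 10573 reads (0.03, interval -0.01 to 0.07). The corepressor gene ncor1, whose product brings histone deacetylases to unliganded receptors, had 17670 against 18030 reads (0.06, interval 0.03 to 0.09).

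All 4 ncoa genes thus had a ratio above 0, from 0.03 to 0.21, with a median of 0.07. Abundant genes as a whole lay on that side, with 3683 of the 5635 genes at 50 CPM or more above 0 and a median of 0.05. The sign did not hold for every gene. It was negative under library totals for ncoa2 (-0.0031) and ncoa6 (-0.0091), and negative with the expression trend removed for ncoa2 (-0.03), ncoa6 (-0.03) and ncor1 (-0.0093). The ratio of ncoa1 was 0.15 with the trend removed. The interval of ncoa3 then included equality (-0.0044 to 0.10).

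The gene greb1, an estrogen-induced partner of the estrogen receptor in human breast cells, had 52 against 86 reads. Its log2 ratio of -0.63 had an interval of -1.16 to -0.12, or 1.55-fold more in the female library. With the expression trend removed the ratio was -0.41 and the interval, -0.94 to 0.10, included equality. The related greb1l, a developmental gene, had 1239 against 1110 reads (0.25, interval 0.13 to 0.37).

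With a lower line of 1.5-fold, 6 of the 48 steroid genes were higher in the female library (12.5%, against 6.09% of measured genes). They were cyp11a1, paqr5a, stard10, hsd11b3a, greb1 and sult1st1. Apart from sult1st1 all lay at 1 to 5 CPM, where 5 of 14 steroid genes passed, against 23.6% of all genes in that range. On the male side of that range none of the 14 passed 1.5-fold, against 9.13% of genes. With no fold required, 20 of 48 intervals lay wholly below equality and 13 wholly above it, against 30.8% and 31.5% of measured genes. The median log2 ratio of the 48 genes was -0.07.

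No measured gene was called in 4 lists of surrounding steps of the pathway. Calls were rare among all 14756 measured genes as well, at 2.70% (higher in females) and 1.06% (higher in males). With lists this short, an absence of calls is close to that background and does not show that these steps were unchanged. None of 17 genes of cholesterol synthesis and transport was called, with a median of -0.07 and with the lipoprotein receptor genes scarb1 and ldlra at -0.35 and 0.32. Of the nuclear steroid receptors and aromatases 8 of 9 were measured and none was called, with a median of 0.18. None of 12 corepressor partners and further coactivators was called either (median 0.09), among them hdac3 at -0.05 and kat2a at 0.30. Of 14 regulators and helpers of steroid synthesis 6 were measured and none was called. The steroidogenic regulator nr5a1a had 841 against 935 reads (-0.06), and the related nr5a1b had 71 against 116 (-0.62, interval -1.07 to -0.18). The helper gene cyb5a had 765 against 1011 reads (-0.31, interval -0.45 to -0.18). The P450 reductase gene por had 6478 against 6264 (0.14, interval 0.09 to 0.19). Of the 6 intervals 2 lay wholly on the female side, 1 on the male side, and 3 included equality. The steroid-binding globulin gene shbg, which is made in liver, had 17 against 71 reads (-1.94) and lay under the minimum level. The ferredoxin reductase gene fdxr was listed at 0 in both libraries.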

How the data were processed

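The deposited table gives 2 columns of estimated counts, named raw counts per the file headers, of which only 1.56% (male) and 1.92% (female) of values above 0 were whole within 0.001. The other 2 columns, named normalized counts per the file headers, are on a log2 scale and equal the log2 of the deposited count divided by 0.971 (male) or 1.03 (female). The tools named in the submitters' processing notes are TopHat 1.4.1 and DESeq, with the build Zv9 and no roles. The counting program, annotation and use of strand were not stated in any source used here, so overlapping genes cannot be separated. Per the labels' protocols 3 µg of RNA from each pool of 5 brains was used as input, and sequencing gave single reads of 51 bp.

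Estimated counts were summed per Entrez ID (296 genes had several rows), rounded, and scaled by median-of-ratios factors (0.970 and 1.03). Log2 ratios used an added count of 0.5. Intervals are Clopper-Pearson 95% intervals of the male share, turned into ratios. The calculation was checked on simulated counts. The genes and lists were chosen with earlier results of these data known. Named genes are those called, the 6 with most reads and the 4 with intervals farthest from equality per class, which gave 46 genes. Further examples were chosen after their values were seen. A few items are not reported here. Levels are not compared between genes, since no transcript lengths were used. Current names came by Entrez ID from the RefSeq table of GRCz12tu for 64 of the 65 genes. Other settings tried were library totals, TMM factors from edgeR, the authors' log2 values, other minimum levels and folds, another added count, unsummed rows, and removal of a lowess trend on expression (fraction 0.3). Python 3.11.15, scipy 1.17.1, statsmodels 0.14.6, R 4.3.3 and edgeR 4.0.16 were used.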

Additional observations from a re-analysis of the deposited data

How the results depend on the processing

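The 2 female-side calls, cyp11a1 and paqr5a, were made under library totals, TMM factors, the authors' normalized values, an added count of 1, unsummed rows and removal of the expression trend. The count was 4 with no minimum level, 0 at a minimum of 5 CPM, 6 at 1.5-fold and 1 (cyp11a1) at 3-fold. On the male side it was 0 under all of these except 1.5-fold, where it was 1 (hsd17b3). Over all genes the female and male counts were 656 and 319 with no minimum, 112 and 59 at 5 CPM, 899 and 413 at 1.5-fold, and 231 and 54 at 3-fold. The male share of all calls was 28.1%, or 38.2% with the expression trend removed. The median of the steroid genes ranged from -0.12 under library totals to -0.01 at a minimum of 5 CPM. Of the 46 named genes, 6 turned sign under library totals and 6 with the trend removed, none with a reported ratio outside -0.08 to 0.06. No paired analysis was possible because each sex has 1 library. Depth limits what can be said of genes under 1 CPM.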

Other observations

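A further 28 genes carry a steroid-gene name of the same families in current RefSeq but another symbol in the table, and were chosen after values were seen. Of these 11 were measured and none was called, against 2.70% (female side) and 1.06% (male side) of all measured genes. Of the 11 ratios 8 lay above 0 and 3 below, with a median of 0.10. The first 2 genes below are not among those 11. The membrane progestin receptor alpha copy paqr7a (listed as LOC798104) had 6 against 46 reads, a log2 ratio of -2.75 (interval -4.37 to -1.62), under the minimum level. The sulfotransferase gene sult3st3 had 2 against 32 reads (-3.61, interval -7.02 to -1.94), also under it. Its neighbours on chromosome 22, sult3st4 and sult3st5, had 4 against 5 and 15 against 16 reads. On the male side, hsd20b2, a steroid dehydrogenase of cortisol breakdown in zebrafish, had 911 against 643 reads (0.59, interval 0.44 to 0.74), or 1.51-fold. The coactivator genes ncoa4, ncoa5 and ncoa7b lay between 0.03 and 0.10. The sulfatase gene sts (LOC402795), cyp21a2 and stard7 were among 12 listed at 0 in both libraries.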
